A study of Mus musculus with 8 samples.

Results

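The aminoacyl-tRNA synthetases are the enzymes that join each amino acid to its transfer RNA. A set of 35 mouse genes for them was chosen by name from the 37224 genes of the count table. The members were 20 genes for cytosolic enzymes, whose symbols join an amino acid letter to "ars", and 15 genes for mitochondrial enzymes, whose symbols end in 2. All 35 were found in the table. Their messenger RNA was measured by RNA sequencing in 8 individually sequenced mouse eggs that had stopped in metaphase II of meiosis (MII oocytes), 4 of the Setd1b conditional knockout named Setd1bGdf9cKO and 4 of control mice, collected after superovulation. Setd1b is a histone methyltransferase that acts on H3 lysine 4, and Gdf9, the gene the knockout is named after, is active in growing oocytes. The strain, the ages, the Cre construct and the alleles of the controls are not given in the labels. Nor do they tell which female each oocyte was taken from, so every p-value reflects variation among these 8 oocytes and libraries, which may be technical in part.

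Charging a transfer RNA needs ATP and an enzyme specific to the amino acid. For most amino acids, mammalian cells keep separate enzymes for translation in the cytosol and in mitochondria. Gars and Kars each serve both compartments from the same gene. The enzymes belong to either of 2 unrelated folds, called class I and class II, and several of the cytosolic enzymes are held in a multisynthetase complex. A fully grown oocyte makes little new RNA, so the messages in an MII oocyte are largely stored during growth, and their poly(A) tails are shortened or lengthened during maturation. The library kit primes on poly(A) tails, so a measured level depends on the number of messages and on their tails, which cannot be told apart here.

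The 4 knockout libraries held 9488899 to 11313502 counts and the 4 control libraries 11029602 to 13519404. A level is given as counts per 1000000 counts of the library (CPM), where 3 counts are 0.222 to 0.316 CPM before composition scaling. Setd1b itself was at 4.42, 5.05, 2.96 and 3.54 CPM in knockout replicates 1 to 4 and at 10.7, 12.8, 9.22 and 10.9 CPM in control replicates 1 to 4, a log2 fold change of -1.44 ± 0.41 (SE) with an adjusted p of 0.0221. The Setd1b call was lost without knockout replicate 3 (adjusted p = 0.0519) or control replicate 2 (0.0540), with library totals alone (-1.04, adjusted p = 0.0887) and with the replicate number as a block (0.0700), and held in 10 of 14 alternatives. All 13 oocyte markers examined passed the filter. Of these, 5 rose (Zp1, Zp2, Zp3, Padi6 and Nlrp5, with log2 fold changes of 1.54 to 3.02), 1 fell (Oosp1, -1.43), and the summed level of all 13 was 20320 to 27280 CPM in knockout and 24150 to 29450 CPM in control libraries. Of 15 markers of cumulus and granulosa cells, 4 passed the filter on low counts and 2 of these fell. Their summed level was 131.3 to 196.4 CPM in knockout and 234.8 to 254.6 CPM in control libraries, and Amh, Foxl2, Inha, Ptx3, Tnfaip6 and Lhcgr had no count. Of 11 markers of blood, stroma and oviduct, 4 passed the filter, and their summed level was 33.2 to 56.7 CPM against 95.6 to 123.1 CPM, with Ptprc, Col1a2, Krt8 and Krt18 at 0. In that list Epcam and Pecam1 fell, from means of 32.9 to 2.97 CPM and of 59.9 to 33.7 CPM, and Cd68, a macrophage marker, rose from 1.35 to 7.88 CPM. The part of other cells in the synthetase results was not tested.

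In control oocytes the synthetase messages spanned a wide range of levels, compared here as CPM per kilobase of exonic length. Farsb, the beta subunit of the cytosolic phenylalanine enzyme, stood highest at 99.96 ± 4.76 CPM per kilobase (SD, n = 4). The mitochondrial phenylalanine enzyme Fars2 followed at 59.6 ± 10.4 CPM per kilobase, and Eprs, the fused enzyme for glutamate and proline, at 39.4 ± 6.13 CPM per kilobase. Nars (asparagine) at 28.8 ± 4.89 and Lars2 (mitochondrial leucine) at 23.5 ± 4.69 CPM per kilobase came next. Iars, Kars, Gars, Dars, Wars and Tars, the enzymes for isoleucine, lysine, glycine, aspartate, tryptophan and threonine, lay between 11.02 and 21.05 CPM per kilobase. Lars, Hars, Rars, Farsa, Sars and Qars lay between 3.47 and 7.88 CPM per kilobase. From Eprs downward each gene overlapped its neighbour in the order within 1 SD, so only Farsb and Fars2 stood clear of the genes next to them. The order rests on the annotated exonic length, which is 6200 bases for Qars and 4538 for Farsa. The transcripts of these genes used for sequence comparison have 2800 and 1826 bases.

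**Figure D1:**
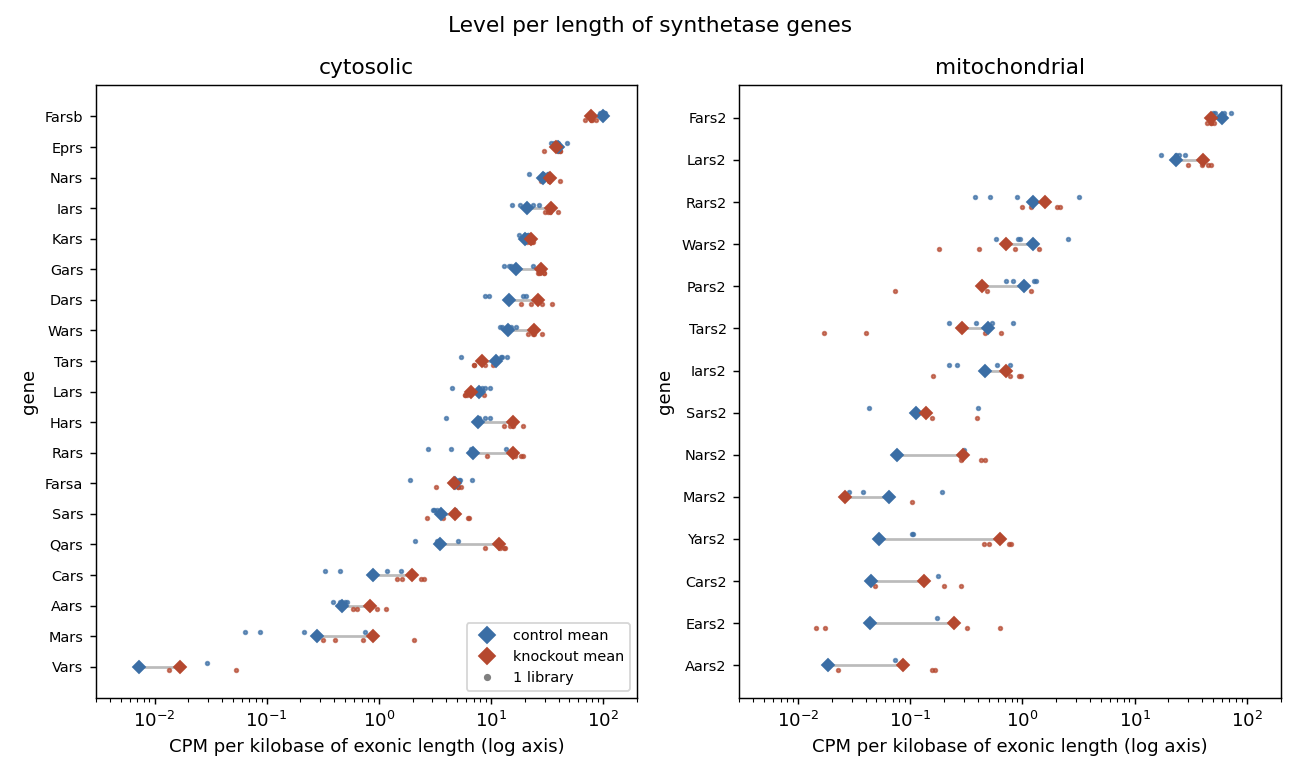
Level of each detected synthetase gene in CPM per kilobase of exonic length (log axis), cytosolic genes on the left and mitochondrial genes on the right; diamonds are group means of 4 libraries and small points are single libraries, with libraries at 0 not drawn. Farsb at 99.96 and Fars2 at 59.6 CPM per kilobase lead the control levels of their panels, and apart from Fars2 and Lars2 the mitochondrial genes lie at or below 1.25 CPM per kilobase in controls.

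The 2 phenylalanine subunits, which form a single cytosolic enzyme with equal numbers of each chain, were far apart in message level. Farsb exceeded Farsa, the alpha subunit, by a log2 ratio per length of 4.12, 4.28, 3.92 and 5.76 in control replicates 1 to 4, a mean of 4.52 ± 0.84 or 23.0-fold. The ratio was 4.42, 3.85, 3.97 and 4.08 in knockout replicates 1 to 4, a mean of 4.08 ± 0.25. The groups overlapped. Both means rest on annotated exonic lengths of 4538 bases for Farsa and 2410 for Farsb. The transcripts used for sequence comparison have 1826 and 2036 bases, and with these lengths the ratio would be smaller. Of the Farsb exonic bases in the annotation, 11% are shared with Sgpp2 on the other strand, and without strand information reads there cannot be assigned to either gene.

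The mitochondrial set was carried by a pair of genes. Lars2 and Fars2 made up 91.1% ± 2.43 (SD, n = 4) of the summed CPM of all 15 mitochondrial members in control and 91.9% ± 3.24 in knockout oocytes. The other mitochondrial genes were at 1.25 CPM per kilobase or less in controls. Rars2 (arginine) and Wars2 (tryptophan) led these at 1.25 ± 1.33 and 1.24 ± 0.88 CPM per kilobase. The mitochondrial members together held 20.1% ± 1.11 of all synthetase CPM in control and 19.5% ± 1.65 in knockout oocytes, so that share overlapped between the groups.

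Not every synthetase entered the reported test. After the filter on low counts 27 members remained, 18 cytosolic and 9 mitochondrial. The 8 left out were Vars and Yars (valine and tyrosine) and the mitochondrial Aars2, Cars2, Ears2, Hars2, Mars2 and Sars2. Yars and Hars2 had no count in any of the 8 libraries, and Vars had 5 counts in all knockout and 2 in all control libraries. The remaining untested members had 4 to 59 counts summed over the 4 knockout libraries and 3 to 9 over the 4 control libraries. Without the filter, those with any count entered the test and none was called. At this depth a difference in these genes could easily be missed.

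Against control, 7 of the 27 tested synthetase genes rose in knockout oocytes, none fell and 20 did not pass an adjusted p of 0.05 by edgeR's quasi-likelihood test. At an unadjusted p under 0.05, 9 were higher and 1, Farsb, was lower. Over all 11066 tested genes, 13.6% were called higher and 12.2% lower, and 20.3% and 17.6% had an unadjusted p under 0.05 in these directions. DESeq2 called 8 members higher and 1 lower, beside 16.3% and 15.8% of all genes, and edgeR with DESeq2 size factors called 7 and 0, beside 13.0% in each direction. The 7 genes were Qars, Hars, Wars, Gars and Iars among the cytosolic and Lars2 and Yars2 among the mitochondrial enzymes. Yars2 passed the filter on low counts through the knockout libraries only. The median log2 fold change was 0.61 over the 27 members and 0.101 over all tested genes. How the libraries are scaled moves the background. With library totals alone 2377 genes were called higher and 510 lower, with a median of 0.49, and with a trend over transcript length removed 965 were higher and 2481 lower, with a median of -0.267, against 1503 and 1347 in the fit reported here. Members called higher and lower were 9 and 0 with library totals, beside 21.5% and 4.61% of all genes, and 2 and 3 with the length trend removed, beside 8.72% and 22.4%. Without the filter 6 and 0 were called, beside 8% and 6.82%, and among genes of at least 10 CPM in 4 libraries 8 and 0, beside 21.3% and 16.6%. With the replicate number as a block 3 and 0 were called, beside 9.85% and 7.78%. With library totals and with the length trend removed, all 7 genes were above 0 and above the median of all genes.

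Qars, the enzyme for glutamine, changed most clearly (ENSMUSG00000032604, chromosome 9, 108508005 to 108515941, mm10). It was at 82.6, 75.0, 81.2 and 55.1 CPM in knockout replicates 1 to 4 and at 31.4, 13.1, 20.4 and 21.2 CPM in control replicates 1 to 4. The lowest knockout library lay well above the highest control library. The log2 fold change was 1.77 ± 0.28 (SE), or 3.42-fold, with an adjusted p of 0.00117. Qars was called in all 15 alternative settings, with adjusted p from 7.57e-08 to 0.00569. Its rank by level per length moved from 17 in control to 13 in knockout oocytes.

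Wars, the enzyme for tryptophan (ENSMUSG00000021266, chromosome 12, 108860030 to 108894174), was at 82.8, 97.3, 81.0 and 74.3 CPM in knockout and at 57.1, 41.2, 51.8 and 43.3 CPM in control libraries. The groups did not overlap, and the fitted change was 0.79 ± 0.19 on the log2 scale with an adjusted p of 0.0116. It was called in 14 of 15 alternatives, the exception being the removal of the length trend (0.37, adjusted p = 0.177).

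Hars, the enzyme for histidine (ENSMUSG00000001380, chromosome 18), was at 29.5, 25.7, 38.2 and 31.3 CPM in knockout and at 17.5, 7.90, 15.4 and 19.6 CPM in control libraries. The knockout libraries all lay above the control libraries, and control replicate 2 was the lowest. The log2 fold change was 1.05 ± 0.32 with an adjusted p of 0.0304. The call was lost without knockout replicate 1, 3 or 4 or control replicate 2 or 3, with adjusted p from 0.0562 to 0.0829, and with the length trend removed (0.41, adjusted p = 0.371). Of its exonic bases, 9.81% overlap Hars2, which lies head to head with it on the other strand and had no count.

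Gars, the glycine enzyme of both compartments (ENSMUSG00000029777, chromosome 6, 55038001 to 55079504), was at 70.5, 62.7, 64.5 and 71.0 CPM in knockout and at 31.1, 56.6, 34.6 and 35.7 CPM in control libraries. Control replicate 2 came close to the knockout libraries without reaching them. On the log2 scale the change was 0.76 ± 0.23 with an adjusted p of 0.0298. The call was lost on leaving out any library except control replicate 2, with adjusted p from 0.0568 to 0.0749, and on removal of the length trend (0.16, adjusted p = 0.639).

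Iars, the enzyme for isoleucine (ENSMUSG00000037851, chromosome 13, 49682100 to 49734267), was at 176.7, 170.8, 161.0 and 210.1 CPM in knockout and at 125.6, 141.3, 81.5 and 95.5 CPM in control libraries. The groups did not overlap. Its log2 fold change was 0.69 ± 0.20 with an adjusted p of 0.0252. The call was lost without knockout replicate 1, 2 or 4 or control replicate 3 or 4, with adjusted p from 0.0536 to 0.0747, and with the length trend removed (0.38, adjusted p = 0.222). A stretch of 2209 bases of its transcript matches the processed pseudogene Gm4849 at 96.8% identity, so its counts are uncertain.

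**Figure D2:**
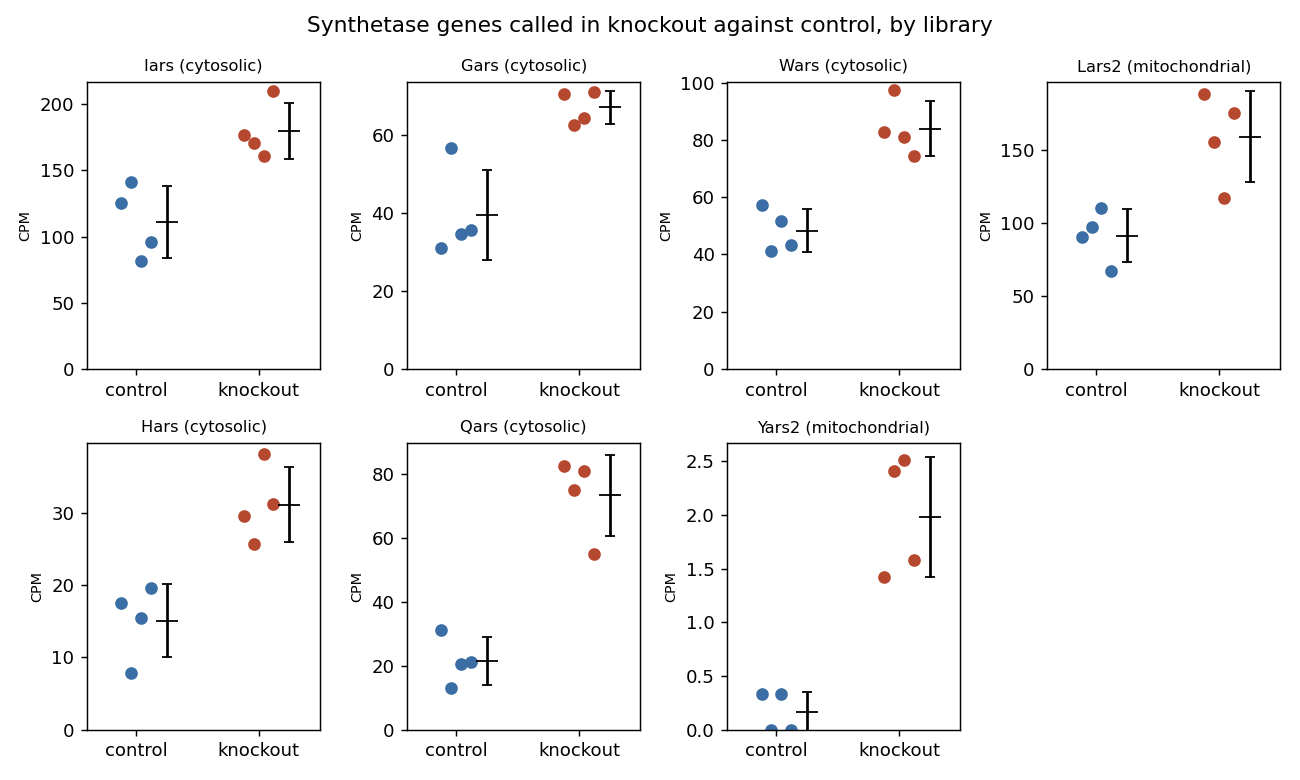
CPM of the 7 synthetase genes that rose, in the 4 control and 4 knockout libraries; points are libraries, and the black marks beside them are the mean and SD. In each panel every knockout point lies above every control point, for Qars at 55.1 CPM or more against 31.4 CPM or less and for Yars2 at 1.43 CPM or more against 0.330 CPM or less.

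Both mitochondrial enzymes that rose belong to class I. Lars2, the mitochondrial leucine enzyme (ENSMUSG00000035202, chromosome 9, 123366940 to 123462664), was at 188.2, 155.0, 117.2 and 175.3 CPM in knockout and at 90.2, 96.8, 110.4 and 66.9 CPM in control libraries. Knockout replicate 3 and control replicate 3 nearly met. The log2 fold change was 0.80 ± 0.21 with an adjusted p of 0.0157, and the call was lost without knockout replicate 1 (adjusted p = 0.0544) and with the length trend removed (0.44, adjusted p = 0.0930). Yars2, the mitochondrial tyrosine enzyme (ENSMUSG00000022792, chromosome 16, 16302965 to 16309640), was at 1.43, 2.41, 2.51 and 1.58 CPM in knockout and at 0.330, 0, 0.329 and 0 CPM in control libraries. It had 96 counts in all knockout and 7 in all control libraries. With 3, 0, 4 and 0 counts in control replicates 1 to 4, Yars2 passed the filter through the knockout libraries only. The fitted log2 fold change of Yars2, 3.52 ± 1.10 with an adjusted p of 0.0347, rests on these few control counts. The call was lost when any of the 8 libraries was left out (0.0506 to 0.103).

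The 20 tested members that did not pass the test lay on both sides of 0. Among the other subunits of the multisynthetase complex, for Rars (arginine) the knockout mean was 51.0 ± 14.99 CPM and the control mean 22.1 ± 15.5 CPM, a log2 fold change of 1.21 ± 0.44 with an adjusted p of 0.0642. Without control replicate 4, at 43.97 CPM the highest control library, its adjusted p was 0.00706. That was the only call among the 8 fits with a library left out, where adjusted p reached 0.146. Of all 15 alternatives 4 called Rars, among them DESeq2 (adjusted p = 0.0289). Dars (aspartate) averaged 65.2 ± 17.8 against 36.5 ± 15.7 CPM, a log2 fold change of 0.84 ± 0.32 with an adjusted p of 0.0790, or 0.0416 without control replicate 4. It was called in 3 of 15 alternatives, with adjusted p up to 0.659. Mars, the methionine enzyme that also charges the initiator transfer RNA, was scarce and scattered, from 1.08 to 7.05 CPM in knockout and from 0.220 to 2.55 CPM in control libraries. Kars, Eprs and Lars had log2 fold changes of 0.16 ± 0.19, -0.05 ± 0.18 and -0.26 ± 0.29. In all, 2 of the 8 tested complex subunits, Iars and Qars, rose and 0 fell, with a median log2 fold change of 0.77. Of the 10 tested cytosolic members outside the complex 3 rose and 0 fell, with a median of 0.59. Beside 13.6% of all genes called higher and 12.2% lower, counts this small do not set either subset apart.

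Farsb was the member nearest to a call in the other direction. It was at 166.1, 185.9, 191.8 and 206.5 CPM in knockout and at 223.9, 245.4, 245.0 and 249.3 CPM in control libraries, so every knockout library lay below every control library. The log2 fold change was -0.36 ± 0.15 with an adjusted p of 0.0918 by edgeR. DESeq2 called it (-0.40, adjusted p = 0.0323), as did the fit with the length trend removed (-0.96, adjusted p = 0.00194), whereas with library totals alone the value was 0.03 (adjusted p = 0.914). Relative to the median of all genes Farsb stood at -0.46 with trimmed-mean scaling, at -0.46 with library totals and at -0.69 with the length trend removed. Farsa, its partner subunit, had a log2 fold change of -0.04 ± 0.37.

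The other cytosolic members outside the complex were scattered. Cars (cysteine) had a log2 fold change of 1.16 ± 0.56 with overlapping groups, from 6.79 to 11.6 CPM in knockout and from 1.54 to 7.33 CPM in control libraries. Aars (alanine) was at 5.47 to 10.8 CPM in knockout and 3.62 to 4.87 CPM in control libraries, without overlap, yet its adjusted p was 0.192. Part of the annotated Aars transcript is shared with Exosc6. Sars (serine) and Nars (asparagine) had log2 fold changes of 0.41 ± 0.36 and 0.23 ± 0.20, and Tars (threonine) -0.41 ± 0.32. Counted by library, 8 tested members had every knockout library above every control library, the 7 called genes and Aars, and 1, Farsb, had the reverse. Over all tested genes these shares were 17.7% and 13.6%.

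Of the mitochondrial members that were not called, only Fars2 was abundant, with means of 101.9 ± 6.33 CPM (knockout) and 126.7 ± 22.0 CPM (control), a log2 fold change of -0.31 ± 0.18 with an adjusted p of 0.212. With library totals alone its value was 0.09. Iars2, Nars2 and Rars2 had log2 fold changes of 0.61 ± 0.65, 1.88 ± 1.502 and 0.36 ± 0.73, and Pars2, Tars2 and Wars2 of -1.23 ± 1.08, -0.76 ± 1.02 and -0.80 ± 0.68. Single libraries moved these values: Nars2 ranged from 1.47 to 6.83 and was called only without control replicate 2 (adjusted p = 0.0473), its sole control library with counts. On leaving out each library in turn, Rars2 ranged from 0.055 to 1.42, highest without control replicate 4, and Iars2 from 0.376 to 0.969. Pars2 ranged from -2.47 to -0.825, Tars2 from -1.51 to -0.366 and Wars2 from -1.36 to -0.198. These 6 genes had group means between 0.319 and 7.40 CPM, and standard errors of 0.65 to 1.502 on the log2 scale. Iars2 shares 22.7% of its exonic bases with Rab3gap2.

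**Figure D3:**
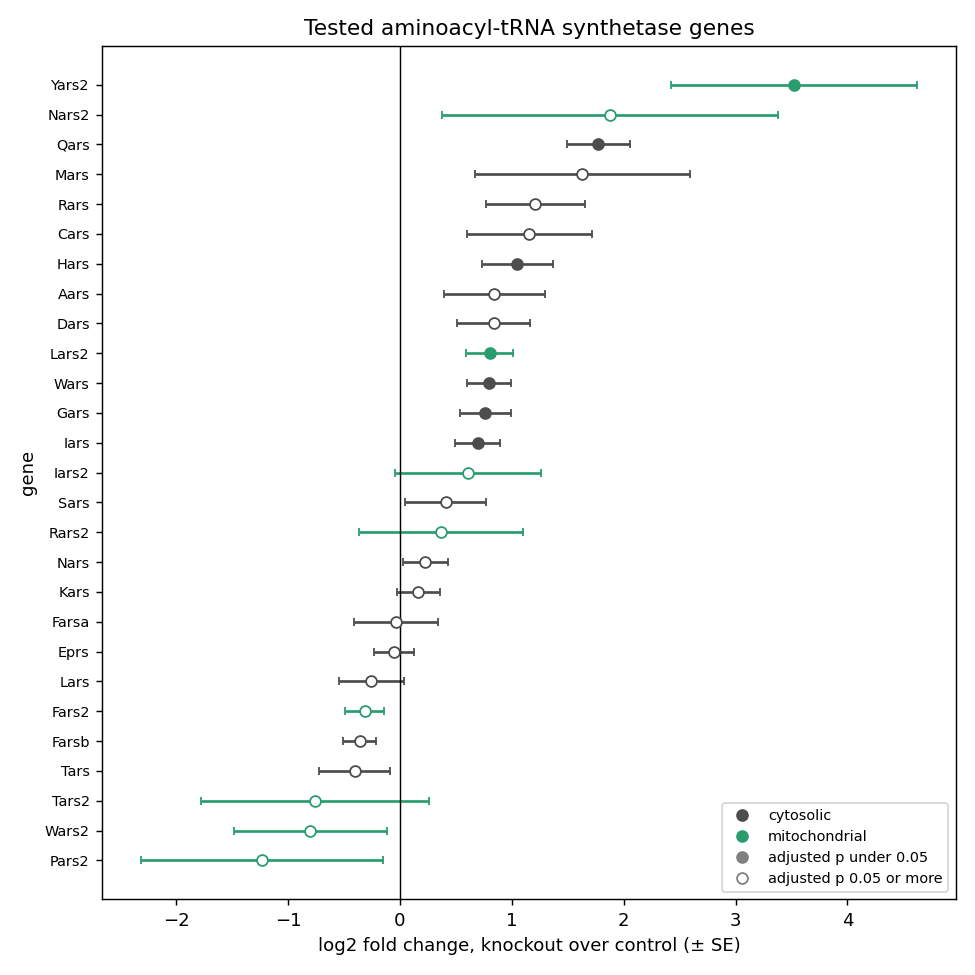
Log2 fold change of the 27 tested synthetase genes, knockout over control, with its standard error; grey-black points are cytosolic and green points mitochondrial genes, and filled points passed an adjusted p of 0.05. All 7 filled points lie right of 0, with Yars2 at 3.52 and Qars at 1.77, and 9 open points lie left of it.

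Between compartments, 5 of 18 tested cytosolic genes and 2 of 9 tested mitochondrial genes rose, and 0 fell in either set, beside 13.6% of all tested genes called higher. Of these, Yars2 passed the filter only through the knockout libraries, where it was high, so its call cannot count as support. The median log2 fold change was 0.73 in the cytosolic and 0.365 in the mitochondrial set. Relative to the median of all genes these were 0.63 and 0.26, and with the length trend removed 0.46 and 0.03. The summed CPM of the 20 cytosolic members was 1134 to 1218 in knockout and 922.2 to 1021 in control libraries, with no overlap. The summed CPM of the 15 mitochondrial members was 235.2 to 311.5 against 216.6 to 253.8, with overlap. The difference between the compartments was not tested, and the mitochondrial set, with 6 of 15 genes untested, was measured less precisely. By structural class, 5 of 13 tested class I genes and 2 of 14 tested class II genes rose, with medians of 0.795 and 0.195. That difference was also not tested, and Eprs, the fused enzyme for glutamate and proline, was counted in class I by its glutamate part.

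Pairs of enzymes for the same amino acid were compared as a log2 ratio of the cytosolic to the mitochondrial gene, per length, in each library. In 9 of 16 pairs both genes were tested, and in all 9 the ratios of the groups overlapped. For leucine, where both genes were abundant, Lars stood below Lars2 by -3.05, -2.78, -2.32 and -2.37 in knockout and by -1.474, -1.503, -2.649 and -0.806 in control libraries. Only control replicate 3 lay within the knockout range. For tryptophan, Wars exceeded Wars2 by 5.45 ± 1.16 in knockout and 3.70 ± 1.01 in control oocytes. For phenylalanine, Farsb exceeded Fars2 by 0.70 ± 0.22 and 0.76 ± 0.21, the closest pair in level, while Farsa stood below Fars2 by -3.38 ± 0.41 and -3.76 ± 1.03. With its compared transcript of 1826 bases in place of the annotated 4538, Farsa would stand less far below. For isoleucine and arginine the cytosolic gene was ahead by 5.86 ± 1.24 and 3.31 ± 0.65 in knockout and by 5.65 ± 0.92 and 2.70 ± 0.43 in control oocytes. The pairs of Nars, Tars and Eprs with Nars2, Tars2 and Pars2 had mitochondrial partners too scarce for a stable ratio.

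The promoters of the members were examined for the core of the composite element bound by ATF4, the transcription factor that induces many synthetase genes when amino acids run short. A window of 250 bases before to 50 bases after the start was taken from RefSeq (build GRCm38.p6) for 26 members. No window was taken for Cars, Hars, Lars, Nars, Rars, Vars and Wars, of which Hars and Wars rose, nor for Hars2 and Pars2. Of 13 cytosolic genes with a window, 5 held the core TGATGNAA on either strand, namely Aars, Gars, Iars, Tars and Yars, and Aars held it at 2 positions. Aars was not called, and Yars had no count. Of 13 mitochondrial genes, 0 held it. Over all 32851 windows of the table, 3.97% held it. The 4 windows printed here show members with different readings: Gars and Iars hold the core and rose, Tars holds it and was not called, and Qars rose and has no match. Capitals mark the match, which appears in each case as the opposite strand of the core; the Gars window is chr6:55037751-55038050 on the plus strand, Iars chr13:49681880-49682179 on the plus strand, Tars chr15:11399609-11399908 on the minus strand and Qars chr9:108507755-108508054 on the plus strand.
Gars: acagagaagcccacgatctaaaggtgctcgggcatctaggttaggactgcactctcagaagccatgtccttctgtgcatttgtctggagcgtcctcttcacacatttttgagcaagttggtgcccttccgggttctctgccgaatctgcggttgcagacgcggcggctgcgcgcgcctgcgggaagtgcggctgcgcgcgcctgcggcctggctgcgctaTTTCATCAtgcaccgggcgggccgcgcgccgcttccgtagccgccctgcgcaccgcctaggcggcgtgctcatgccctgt
Iars: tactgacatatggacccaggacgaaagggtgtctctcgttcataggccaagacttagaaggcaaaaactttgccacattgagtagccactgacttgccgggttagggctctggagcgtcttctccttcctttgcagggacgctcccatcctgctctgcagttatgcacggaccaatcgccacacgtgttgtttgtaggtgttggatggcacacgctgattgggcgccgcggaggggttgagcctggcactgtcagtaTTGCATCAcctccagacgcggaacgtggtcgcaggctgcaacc
Tars: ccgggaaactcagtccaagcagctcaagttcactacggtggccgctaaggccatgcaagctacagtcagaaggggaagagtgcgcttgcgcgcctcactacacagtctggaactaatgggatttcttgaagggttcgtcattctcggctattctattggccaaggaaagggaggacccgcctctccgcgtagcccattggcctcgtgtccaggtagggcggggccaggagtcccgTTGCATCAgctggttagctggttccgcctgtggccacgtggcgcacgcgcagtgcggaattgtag
Qars: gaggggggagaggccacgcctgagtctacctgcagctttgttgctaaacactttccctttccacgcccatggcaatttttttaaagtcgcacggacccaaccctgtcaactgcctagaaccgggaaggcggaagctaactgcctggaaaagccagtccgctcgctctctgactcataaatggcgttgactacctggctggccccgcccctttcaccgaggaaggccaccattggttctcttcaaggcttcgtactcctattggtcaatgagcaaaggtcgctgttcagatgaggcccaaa
Counted with the start as base 1, the match began at base -30 in Gars, 8 in Iars and -15 in Tars. A match is a description of these letters and does not show binding. The windows of the members held a median of 5.67 CpG dinucleotides per 100 bases, from 2.33 to 12, against 2.33 over all windows, whose quartiles were 1.0 and 6.67. Gars had 10.3 and Qars 4.33 CpG per 100 bases.

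Calls among genes that work beside the synthetases went in both directions, as over all tested genes, where 13.6% were higher and 12.2% lower. Of 18 tested accessory and related genes, 3 rose and 2 fell, with a median log2 fold change of 0.68. Eef1e1, a scaffold protein of the multisynthetase complex, rose by 1.00 ± 0.27 on the log2 scale, from 39.3 to 78.8 CPM on average. Dtd1, which removes D-amino acids from charged transfer RNA, and Ptrhd1, a peptidyl-tRNA hydrolase relative, rose by 1.74 ± 0.53 and 1.33 ± 0.38. Eef1e1 was called in 13 of 15 alternatives and lost without knockout replicate 2 and with the length trend removed (adjusted p = 0.256). Dtd1 was called in 6 of 15 and lost on leaving out any library except control replicate 1, and Ptrhd1 in 9 of 15, with losses without knockout replicate 2 or 3 or control replicate 1 or 2. Gatb, a subunit of the mitochondrial amidotransferase that converts glutamate to glutamine on its transfer RNA, fell from 25.2 ± 4.76 (SD, n = 4) to 8.47 ± 2.77 CPM. Its log2 fold change was -1.57 ± 0.35 with an adjusted p of 0.00698, and it was called in all 15 alternatives. Trnt1, which adds the CCA end, fell by 0.81 ± 0.25 on the log2 scale and was called in 8 of 15 alternatives. Its losses came with library totals alone (adjusted p = 0.257), with the block and without knockout replicate 1, 3 or 4 or control replicate 1 or 4. Vars2, the mitochondrial valine enzyme, which was not in the member list, had a log2 fold change of 1.13 ± 0.70 and was not called.

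Of 26 tested genes for transfer RNA processing and export, 5 rose and 2 fell, beside 13.6% and 12.2% of all tested genes. Their median log2 fold change was 0.41. Tyw1, which acts in making wybutosine beside the phenylalanine anticodon, rose from 16.1 ± 5.93 to 73.7 ± 28.0 CPM, a log2 fold change of 2.19 ± 0.34 with an adjusted p of 0.00101. Rtcb, the ligase that joins the pieces of spliced transfer RNA, and Thg1l, which adds the extra guanosine of histidine transfer RNA, rose by 1.99 ± 0.56 and 1.16 ± 0.32 on the log2 scale. Ssb, the La protein that binds new transfer RNA ends, fell by 0.99 ± 0.28, and Trmt6, a subunit of the enzyme that methylates an adenosine, fell by 1.74 ± 0.52. Tyw1 was called in all 15 alternatives. Thg1l was called in 13 of 15, lost without knockout replicate 2 and with the length trend removed (adjusted p = 0.131). Rtcb was called in 10 of 14, lost without knockout replicate 1 or 2, and Ssb in 10 of 15, lost without knockout replicate 1 or 4 or control replicate 1. Trmt6 was called in 9 of 14, lost without knockout replicate 2 or 4 or control replicate 4. With library totals alone the Ssb and Trmt6 calls were also lost (adjusted p = 0.0903 and 0.0741).

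Of 11 tested elongation factors, 3 rose and 1 fell, beside 13.6% and 12.2% of all tested genes. These factors carry charged transfer RNA to the ribosome or move the ribosome on, and their median log2 fold change was 0.02. Eef2, the translocase, was at 37.6, 49.3, 32.4 and 31.1 CPM in knockout and at 9.24, 18.6, 17.8 and 6.80 CPM in control libraries, a log2 fold change of 1.52 ± 0.36 with an adjusted p of 0.00942. Eef1d, part of the exchange factor, rose by 1.53 ± 0.38. Both were called in all 15 alternatives. Eef1b2, another part of the exchange factor, rose by 0.72 ± 0.23 but was called in 4 of 15 alternatives, and Guf1, a mitochondrial elongation factor, fell by 1.16 ± 0.39 and was called in 5 of 15, with adjusted p up to 0.155. The Guf1 call was lost without any library except knockout replicate 3 and control replicate 3.

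Of 24 tested genes of the amino acid response, 3 rose and 4 fell, beside 13.6% and 12.2% of all tested genes. Their median log2 fold change was 0.365. Slc7a11, the cystine transporter, was at 249.0, 209.2, 279.2 and 279.2 CPM in knockout and at 610.6, 538.7, 368.1 and 426.0 CPM in control libraries, a log2 fold change of -0.93 ± 0.19 with an adjusted p of 0.00460. Eif2ak4, the kinase GCN2 that senses uncharged transfer RNA, fell from 90.4 ± 4.24 to 47.3 ± 10.6 CPM (-0.94 ± 0.21). Shmt2, a mitochondrial serine enzyme, fell by 0.79 ± 0.22. Cebpb and Slc7a1, the arginine and lysine transporter, rose by 2.44 ± 0.73 and 1.32 ± 0.42. Cebpb, with 24 counts in all control libraries, was called in 5 of 14 alternatives and lost on leaving out any library except knockout replicate 3 and control replicate 1. Slc7a1 was called in 10 of 15 and lost without any of the knockout libraries or control replicate 4. Shmt2 was called in 10 of 15, lost without knockout replicate 2 or 3 or control replicate 3, and Eif2ak4 in 14 of 15. With library totals alone the Shmt2 and Eif2ak4 calls were lost (adjusted p = 0.262 and 0.0610). Atf4 and Slc3a2 were the remaining genes called, named after their values were seen, at 0.85 ± 0.29 (adjusted p = 0.0487) and -0.68 ± 0.22. The Slc3a2 call held in 7 of 15 alternatives and the Atf4 call in 4 of 15, with an adjusted p of 0.674 on removal of the length trend. Asns, a much used target of ATF4, had 20 counts in all knockout and 16 in all control libraries and did not pass the filter.

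**Figure D4:**
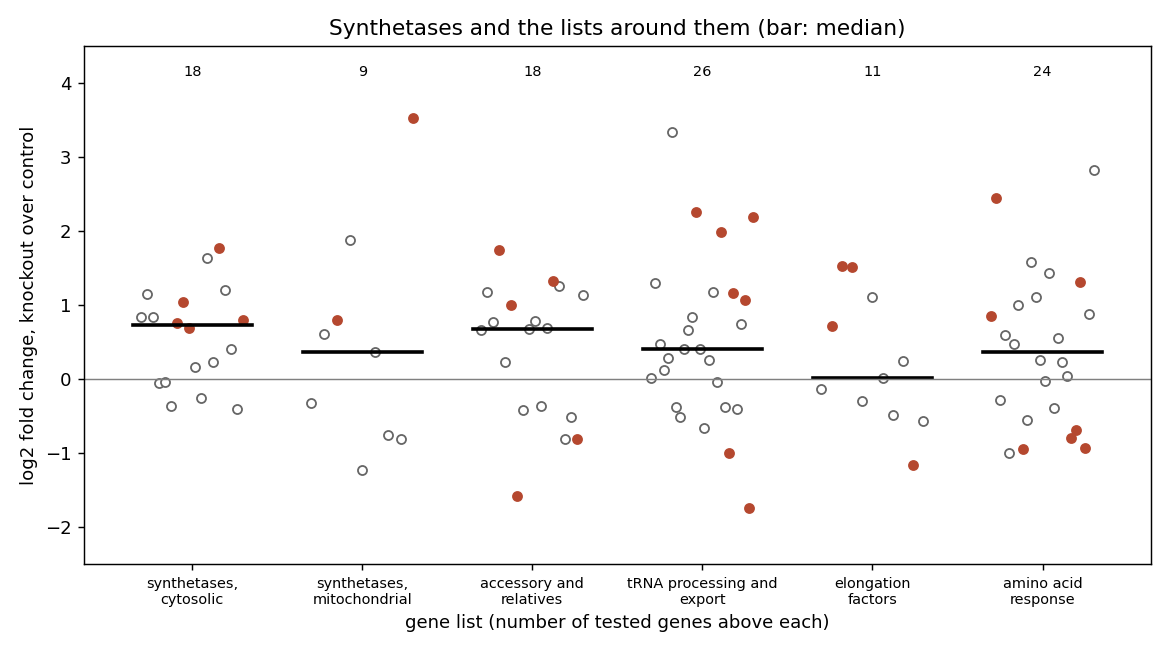
Log2 fold change, knockout over control, of each tested gene in the 2 synthetase sets and the 4 related lists; filled points passed an adjusted p of 0.05, open points did not, and the bar is the median. Filled synthetase points all lie above 0, with medians of 0.73 and 0.365. Each related list has filled points on both sides, with medians of 0.68, 0.41, 0.02 and 0.365 from left to right.

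The authors' deposited table lists 2709 genes with an adjusted p of at most 0.009996, beside 37224 genes in the count table. Of the 35 members 7 are in it, the same 7 that were called here. It was made from the same 8 libraries, so the match is not separate support. In the authors' deposited table the shrunken log2 fold change is 1.67 for Qars, 0.96 for Hars, 0.75 for Lars2, 0.74 for Wars, 0.71 for Gars, 0.64 for Iars and 2.29 for Yars2. The unshrunken value for Yars2 in the authors' deposited table is 3.57.

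**Figure D5:**
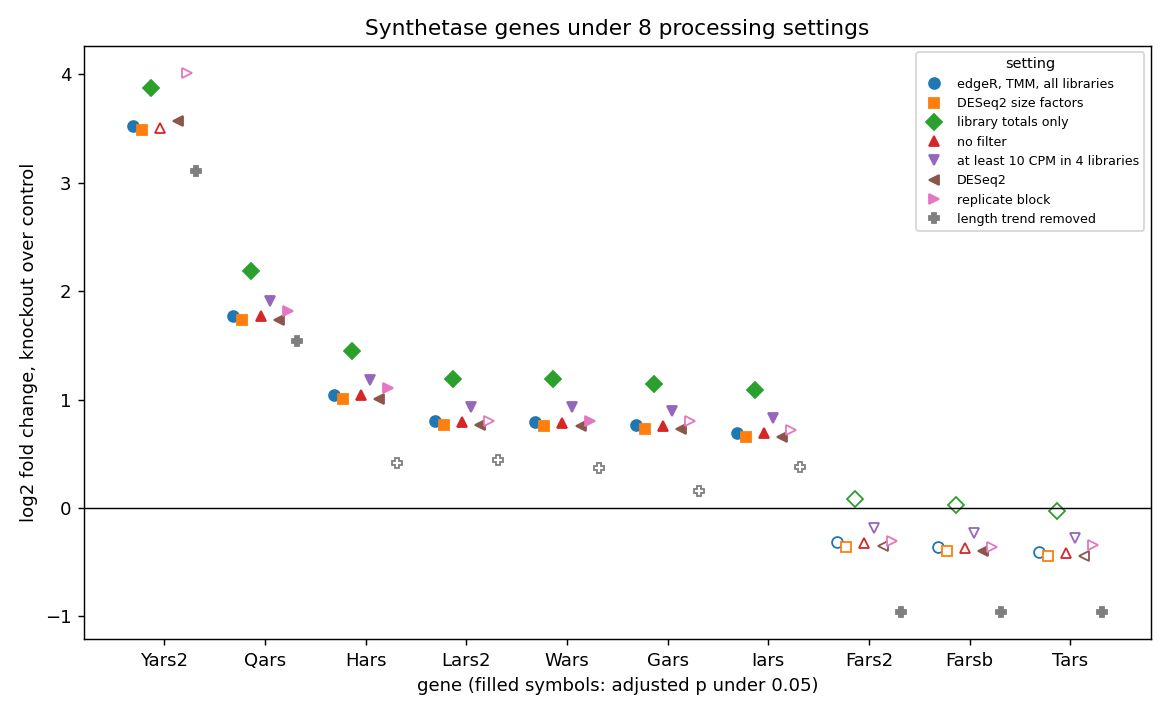
Log2 fold change, knockout over control, of the 7 called genes and of Fars2, Farsb and Tars under 8 processing settings; filled symbols passed an adjusted p of 0.05. Qars is filled under each setting shown, and Fars2, Farsb and Tars are filled below 0 with the length trend removed.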

How the data were processed

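Single MII oocytes, 4 knockout and 4 control by the genotype label, were lysed, and their RNA was reverse transcribed and amplified with a SMARTer Ultra Low kit, per the labels' protocols. Libraries were read as 75-bp single reads. The kit carries no molecular identifiers and marks no strand, so amplified copies count as separate reads and overlapping genes cannot be told apart. GSNAP, featureCounts 1.4.4, DESeq2 1.3.79 and build mm10 are named per the submitters' processing notes. The deposited counts per gene use the gene models of Ensembl 69, a mapping quality of at least 1 and no strand setting, per the file headers, and no option for multiply mapped or multiply overlapping reads is set there, so reads of near-identical copies can be lost or misplaced. All 8 count columns of the deposited table hold whole numbers. The deposited comparison holds log2 fold changes, p-values and adjusted p-values, a signal normalized by 1 size factor per library and RPKM values, per the file headers; the last 2 were not used.

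In R 4.3.3 the quasi-likelihood F test of edgeR 4.0.16 was applied to the counts (TMM, filterByExpr with a minimum count of 10 and a total of 15, genotype as the only term), with Benjamini-Hochberg adjustment over 11066 genes at 0.05. CPM is the count per 1000000 of the library total times its TMM factor (1.07 to 1.22 in knockout, 0.800 to 0.947 in control), and SE is the log2 fold change divided by the square root of F. Pair ratios added 0.5 counts. The members and all gene lists were chosen with earlier results of these data known. All 35 members are accounted for; called members are given by library, and up to 5 called genes per related list were named by smallest p. Of the listed names, Adat3 and Hbb-b1 matched no gene. A gene name table gave the symbols of 35449 identifiers. Transcripts of GENCODE release M21 were compared with BLAST 2.17.0 over at least 75 bases at 95% identity or more. Libraries within a group correlated at 0.931 to 0.958 and differed by more than sampling noise (chi-square per degree of freedom of 32.4 or more), so none was counted again. Counts of 11066 genes were simulated for this comparison. A much smaller share was altered than the 13.6% and 12.2% called higher and lower in the data. Of altered genes that passed the filter again, the test found 18 of 96 altered by 2-fold and 55 of 90 by 4-fold. In that simulation 0 unchanged genes were called. The Benjamini-Hochberg adjustment depends on the share altered, so these recoveries do not give the recovery in the data. A planned search for protein motifs was not run here. Alternatives were DESeq2 size factors, library totals, DESeq2 1.42.0, no filter, a minimum of 10 CPM in 4 libraries, the replicate number as a block, a length trend removed per library (loess, span 0.5) and each library left out, 15 in all. Their use on the related lists and Setd1b was added after seeing the data.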

Additional observations from a re-analysis of the deposited data

Results flagged for a closer look

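In 6 of 54 groups of 4 libraries, 1 library stood apart from the other 3 by more than Dixon's 95% limit, which chance alone passes in about 1 of 20 groups. Eprs was at 144.3 CPM in knockout replicate 2, with the other knockout libraries from 192.9 to 199.6 CPM. Farsa was at 14.55 CPM in knockout replicate 1, with the others from 22.98 to 24.33 CPM. Farsb was at 223.9 CPM in control replicate 1, with the other controls from 245.0 to 249.3 CPM, so the library that stood apart was the control nearest to the knockout libraries. Lars was at 33.58 CPM in knockout replicate 4, with the others from 22.45 to 23.35 CPM. Sars was at 17.39 CPM in control replicate 4, with the others from 11.12 to 12.13 CPM. Nars2 was at 1.277 CPM in control replicate 2 and at 0 in the other controls. None of these 6 genes was called by edgeR's test with all libraries, and the 6 values came from 6 different libraries.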

How the results depend on the processing

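The 7 synthetase genes that rose kept their direction in all 15 alternatives that tested them, but Qars alone was called in each. The number of members called higher was 3 with the replicate block (Qars, Wars and Hars) and 2 with the length trend removed (Qars and Yars2). Members called lower were 1 by DESeq2 (Farsb) and 3 with the length trend removed (Farsb, Fars2 and Tars). Of cytosolic members, 3 were higher with the block and 1 with the length trend removed, and 1 was lower by DESeq2 and 2 with the length trend removed. Of mitochondrial members, 1 was higher without the filter, 1 with at least 10 CPM in 4 libraries, 0 with the block and 1 with the length trend removed, where 1 was also lower. Leaving out each library in turn gave 2 to 6 members higher, 2 to 5 cytosolic and 0 to 2 mitochondrial, with 2 members without knockout replicate 1, 3 without knockout replicate 4 or control replicate 3, and 4 without knockout replicate 2 or 3. Over all genes, 2377 were higher and 510 lower with library totals, 965 and 2481 with the length trend removed, and 1090 and 861 with the replicate block. Leaving out a library gave 1012 to 1597 genes higher and 837 to 1244 lower, the fewest lower without knockout replicate 2. The cause of these changes was not tested.

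Same-numbered knockout and control libraries correlated at -0.159 to -0.0313 in their deviations, and 0 of 4 knockout libraries correlated best with its own number. The labels do not say that a number is shared between groups, and correlations among 4 libraries per group cannot settle it. The block is given as an alternative, and whether it pairs related samples was not tested. Among called genes of the related lists and Setd1b none changed direction. The lists moved with the settings. With the length trend removed, 0 accessory genes were higher and 3 lower, and 1 processing gene was higher and 6 lower. In that fit 2 elongation factors were higher and 5 lower, and 1 amino acid response gene was higher and 8 lower. Of all tested genes, 8.72% were higher and 22.4% lower in the same fit. Low counts limit the mitochondrial set, where 6 of 15 genes were not tested and Yars2 rests on 7 control counts. Iars counts may include reads of its pseudogene copy, and Hars and Farsb may lose reads in exons shared with a gene on the other strand.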

Other observations

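Ears2 and Chac1, too low for the filter, had unequal counts. They are named after their values were seen, with no test in the reported fit. Ears2, the mitochondrial glutamate enzyme, had 1, 22, 1 and 35 counts in the 4 knockout libraries, by replicate number, against 0, 0, 0 and 9 in the control libraries. Chac1, a glutathione-degrading target of ATF4, had 26, 3, 22 and 3 counts against 0, 0, 9 and 0. In both genes some knockout libraries lay below the control library with 9 counts. Vars2, which was tested and not called, had 284, 171, 160 and 116 counts in knockout and 63, 88, 155 and 3 in control libraries, so control replicates 3 and 4 lay far apart.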
